A study of Mus musculus with 3 samples.

Results

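The 10 genes described here belong to the acute phase response and were followed in mouse spleens that had received islet grafts: Saa1, Saa2, Saa3, Lcn2, Hp, Orm1, Orm2, S100a8, S100a9 and Ptx3. All probes that carry these gene names on the array were taken, which gave 10 probes, 1 for each gene, among 34797 gene names and 55679 probes. The genes were chosen with their signals on these arrays known, for peaking on day 0 or on day 2, so the day of the peak is given below as a description. The recipients were male C57BL/6J mice made diabetic with streptozotocin, a toxin of beta cells, and every spleen had received 25 islets of syngeneic donors by needle puncture of its surface. The study's methods state that 100 further islets were placed beneath the kidney capsule of the same mice (SP25+KC100), although the sample labels name that second graft for Sample 3 alone. Sample 1 was spleen taken just after transplantation (day 0), Sample 2 spleen taken on day 2, and Sample 3 spleen taken on day 139 from mice whose capsular graft had been removed by nephrectomy on day 100. Each day is represented by 1 array, so no difference below has a replicate check, no p-value can be given, and a difference between days cannot be told apart from a difference between RNA samples. The study's methods place transplantation 3 days after the streptozotocin injection, so time since the toxin and time since grafting cannot be told apart here. The mice of Sample 3 had also aged since grafting and had lost a kidney. Age, nephrectomy and time since grafting therefore cannot be told apart on day 139. The methods give a range of ages for the mice. The number and exact age of the mice behind each array and the minutes between surgery and harvest on day 0 are not given in the sources used here, and no spleen without a graft was analysed here.

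Acute phase proteins are secreted in large amounts during inflammation, classically by hepatocytes under interleukin-6, interleukin-1 and tumor necrosis factor. The serum amyloid A proteins Saa1 and Saa2 are mainly products of the liver and bind to high density lipoprotein, whereas Saa3 is made largely outside the liver, by macrophages and stromal cells among others. Haptoglobin (Hp) captures free hemoglobin, the orosomucoids Orm1 and Orm2 are plasma carrier proteins, lipocalin 2 (Lcn2) withholds iron from bacteria by binding their siderophores, S100a8 and S100a9 form calprotectin, an abundant cytosolic complex of neutrophils and monocytes, and the pentraxin Ptx3 is released locally by myeloid and stromal cells. The spleen holds red blood cells, lymphocytes, macrophages and a reserve of monocytes and neutrophils, so transcripts of several of these genes are normally found there.

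The genes lie partly in clusters. On the mouse build mm9, the probes of Saa3 (chr7:53970389-53970448, minus strand), Saa1 (chr7:53996070-53996129, minus strand) and Saa2 (chr7:54009622-54009681, plus strand) lie within 39.3 kb of chromosome 7, those of S100a8 (chr3:90473778-90473837, plus strand) and S100a9 (chr3:90496573-90496632, minus strand) within 22.9 kb of chromosome 3, and those of Orm1 (chr4:63006483-63007090, plus strand, across an intron) and Orm2 (chr4:63024979-63025038, plus strand) within 18.6 kb of chromosome 4. The remaining probes map to chr2:32240199-32240258 on the minus strand for Lcn2, to chr8:112099045-112099104 on the minus strand for Hp and to chr3:66029245-66029304 on the plus strand for Ptx3.

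The probes below are shown because the results for the amyloids and for calprotectin rest on them. Each is 60 bases long and is written 5′ to 3′. The Saa1 probe reads through in 1 frame to the stop codon, shown in capitals, and the Saa3 and S100a8 probes hold no stop codon in at least 1 frame and carry no capitals.
Saa1: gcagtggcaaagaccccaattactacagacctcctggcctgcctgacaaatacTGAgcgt
Saa3: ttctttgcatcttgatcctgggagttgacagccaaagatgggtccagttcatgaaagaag
S100a8: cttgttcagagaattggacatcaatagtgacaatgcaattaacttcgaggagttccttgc
Saa1 and Saa2 are close paralogs, so hybridization of Saa2 transcripts to the Saa1 probe was not tested and the Saa1 signal may hold some of both.

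The promoters of the 3 amyloid genes and of Lcn2 are shown because Saa1 and Saa3 were highest on day 2 and Lcn2 on day 0. A further reason is that the probes of Saa1 and Saa2, which are near copies, differed in being measured. The day 2 over day 0 ratios of Saa1 and Saa3 did not meet the study's criteria, given below. The Saa1 and Saa2 probes start at different transcript bases (346 and 547), so they may not measure alike. Each line gives the 250 bases before the transcription start from RefSeq on build GRCm38.p6, read 5′ to 3′ on the strand of the gene. Capitals mark matches on either strand to TTNNGNAA, a C/EBP-type motif bound by the factors that carry interleukin-6 signals to acute phase genes. The windows are chr7:46715677-46715926 (minus strand) for Saa3, chr7:46742981-46743230 (minus strand) for Saa1, chr7:46751583-46751832 (plus strand) for Saa2 and chr2:32387740-32387989 (minus strand) for Lcn2.
Saa3: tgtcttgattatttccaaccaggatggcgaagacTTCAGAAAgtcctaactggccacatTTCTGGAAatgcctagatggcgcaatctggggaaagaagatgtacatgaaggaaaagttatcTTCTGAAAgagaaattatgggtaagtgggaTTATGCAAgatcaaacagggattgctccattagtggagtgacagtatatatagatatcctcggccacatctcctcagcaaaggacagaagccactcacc
Saa1: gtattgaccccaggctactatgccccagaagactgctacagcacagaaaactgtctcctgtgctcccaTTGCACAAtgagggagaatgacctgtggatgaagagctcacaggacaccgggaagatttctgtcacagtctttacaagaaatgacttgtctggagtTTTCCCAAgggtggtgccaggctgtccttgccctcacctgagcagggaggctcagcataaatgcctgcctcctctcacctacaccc
Saa2: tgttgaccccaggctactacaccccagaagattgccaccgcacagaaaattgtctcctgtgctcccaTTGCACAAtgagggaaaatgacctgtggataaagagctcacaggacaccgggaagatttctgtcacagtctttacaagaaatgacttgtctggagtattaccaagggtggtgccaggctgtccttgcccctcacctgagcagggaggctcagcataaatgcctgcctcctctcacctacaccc
Lcn2: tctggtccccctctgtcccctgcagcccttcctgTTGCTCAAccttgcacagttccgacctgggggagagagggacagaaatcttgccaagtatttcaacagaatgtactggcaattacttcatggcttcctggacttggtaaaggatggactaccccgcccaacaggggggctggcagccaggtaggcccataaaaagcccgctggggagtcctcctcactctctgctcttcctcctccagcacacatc
Saa3 held 4 matches, Saa1 2, and Saa2 and Lcn2 1 each. The Saa1 and Saa2 windows were 94.8% identical, with 13 base edits between them, whereas Saa3 was 48.0% identical to Saa1 and 47.2% to Saa2. All 8 members with a promoter in the table held the motif, against 36.8% of 32851 mouse promoters of the same length. An NF-kB-type motif (GGG, 2 free bases, TT, 1 free base, CC) was found in 0 of 8 and in 4.11% of all promoters, and TTCNNNGAA, a STAT-type motif, in 0 of 8 and in 7.02%. Both strands were searched, and matches to the C/EBP-type and STAT-type motifs can overlap. A match says only that these letters stand in the window, and the promoters of Hp and Orm1 were not used here. A count of 0 says only that this 1 written pattern is missing from the windows. Other forms of NF-kB or STAT sites were not searched, so their absence cannot be read from it.

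Of the 10 genes, 6 were well above background on all 3 arrays (Saa1, Saa3, Lcn2, Hp, S100a8 and S100a9), Orm1 was so on day 0 alone, and Saa2, Orm2 and Ptx3 on none. Signals are quantile-normalized fluorescence of a single probe, so they can be compared between days for 1 gene but not between genes. Values after ± are the error that the scanner software assigned to the probe's spot; it covers the spot and not the animals. The 6 genes measured on all arrays fell into 2 patterns. Saa1 and Saa3 were highest on day 2 and far lower on day 139, whereas Lcn2, Hp, S100a8 and S100a9 were highest on day 0. None of the 6 was highest on day 139, and Orm1, which passed the filter through day 0 alone, is given no day. Among all 32108 detected probes, 32.2% were highest on day 0, 34.5% on day 2 and 33.3% on day 139.

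**Figure D1:**
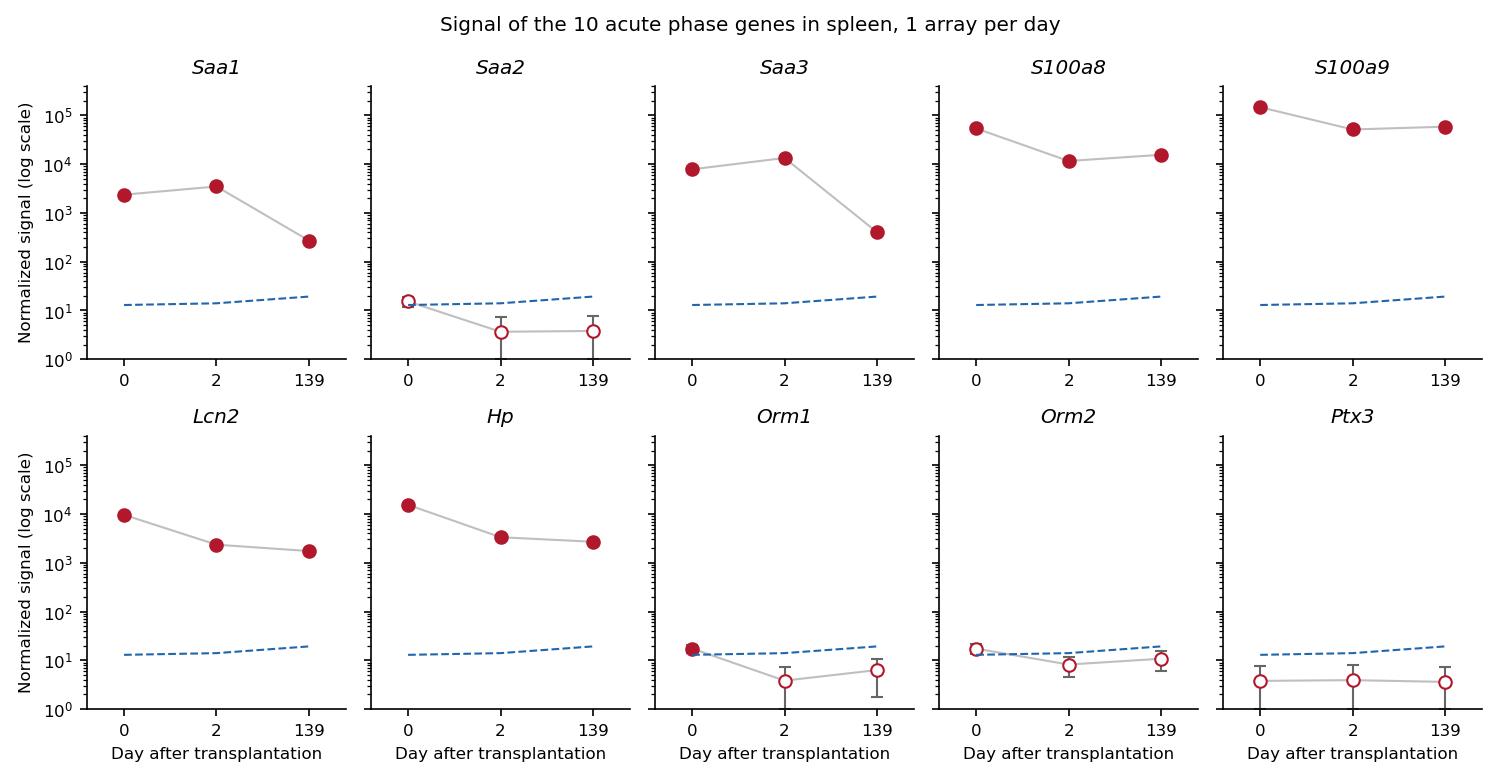
Normalized signal (log scale, arbitrary units) of the 10 genes on days 0, 2 and 139, with 1 array per day; bars give the scanner's error, filled points are well above background and open points are not, and the dashed line joins the lowest signal well above background on each array. Saa1 and Saa3 peak on day 2 and drop on day 139, Lcn2, Hp, S100a8 and S100a9 peak on day 0, and Saa2, Orm2 and Ptx3 have open points throughout.

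The amyloid gene Saa3 had the widest swing of the members. Its signal was 7835 ± 784 on day 0, 13382 ± 1338 on day 2 and 403 ± 40.5 on day 139. Days 0 and 2 were thus both high, and the day 139 value was low but still well above background. The log2 ratio of day 2 over day 0 was 0.77, with a scanner error of 0.20, a Z-score of 1.79 and a position within the top 6.64% of detected probes. The Z-score is the log2 ratio divided by the standard deviation of the ratios of the 1000 detected probes nearest in mean signal, and the study's criteria ask for a ratio of at least 1.5 with a Z-score of at least 2, or a ratio of at most 0.66 with a Z-score of at most -2. Saa3 therefore stayed just short of the criterion for a higher signal on day 2. On day 139 it was 19.4-fold lower than on day 0 (log2 ratio -4.28, Z-score -7.12) and 33.2-fold lower than on day 2 (log2 ratio -5.05, Z-score -8.27). Only 22 of the 32108 detected probes had a lower ratio of day 139 over day 0, and 5 had a lower ratio of day 139 over day 2.

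Saa1, an acute phase reactant classically of the liver, followed the same course with a smaller swing. Its signal was 2367 ± 237 on day 0, 3481 ± 348 on day 2 and 272 ± 27.5 on day 139. The day 2 over day 0 log2 ratio was 0.56 (Z-score 1.18), a ratio of 1.47 that missed the criteria. The day 139 signal was 8.71-fold lower than day 0 (log2 ratio -3.12, Z-score -5.52) and 12.8-fold lower than day 2 (log2 ratio -3.68, Z-score -5.75). The log2 ratio of day 139 over day 0 was lower for Saa3 than for Saa1 by 1.16 with a scanner error of 0.29, while for day 2 over day 0 the ratios of the amyloid genes differed by 0.22 with an error of 0.29. Saa2 was not well above background on any array, with signals of 15.3 on day 0, 3.66 on day 2 and 3.80 on day 139, and no fold change is given. Saa4, a constitutive amyloid gene of the same cluster that is no member, was not well above background on any array either.

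Hp and Lcn2 peaked on day 0 and moved in near parallel. Hp had a signal of 15399 ± 1540 on day 0, 3339 ± 334 on day 2 and 2695 ± 270 on day 139. It was 4.61-fold lower on day 2 than on day 0 (log2 ratio -2.21, Z-score -5.13) and 5.71-fold lower on day 139 than on day 0 (log2 ratio -2.51, Z-score -4.38). Lcn2 had a signal of 9597 ± 960 on day 0, 2346 ± 235 on day 2 and 1739 ± 174 on day 139. It was 4.09-fold lower on day 2 (log2 ratio -2.03, Z-score -4.64) and 5.52-fold lower on day 139 (log2 ratio -2.46, Z-score -3.97) than on day 0. For both genes day 0 stood alone and the later days lay close together, with log2 ratios of day 139 over day 2 of -0.31 for Hp and -0.43 for Lcn2, which were 0.11 and 0.01 when the arrays were scaled to their spike-in controls. The log2 ratios of Hp and Lcn2 differed by -0.17 for day 2 over day 0 and by -0.05 for day 139 over day 0, each with a scanner error of 0.29.

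The calprotectin genes also fell from day 0. S100a8 had a signal of 53944 ± 5394 on day 0, 11605 ± 1160 on day 2 and 15540 ± 1554 on day 139. S100a9 had a signal of 147009 ± 14701, 51357 ± 5136 and 58589 ± 5859 on the same days, and ranked 76th of 55679 probes by signal on day 0, with no saturated spot on any array. In both genes the day 0 array was the high one, and the day 139 value lay slightly above that of day 2. S100a8 was 4.65-fold lower on day 2 than on day 0 (log2 ratio -2.22, Z-score -4.91) and 3.47-fold lower on day 139 (log2 ratio -1.80, Z-score -3.30). S100a9 was 2.86-fold lower on day 2 (log2 ratio -1.52, Z-score -4.67) and 2.51-fold lower on day 139 (log2 ratio -1.33, Z-score -3.15), and under spike-in scaling its day 139 ratio was -0.78 with a Z-score of -1.80, short of the criteria. The day 2 over day 0 ratio was lower for S100a8 than for S100a9 by 0.70 on the log2 scale, with a scanner error of 0.29, although the proteins work as a complex.

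The remaining members were dim. Orm1 had a signal of 17.4 on day 0, where it was well above background, and of 3.83 on day 2 and 6.31 on day 139, where it was not. Against the lowest signal well above background, Orm1 was at least 1.24-fold lower on day 2 than on day 0, and no bound above 1 could be had for day 139. Orm2, its neighbor, had signals of 17.3, 8.20 and 10.8, and Ptx3 had 3.79, 3.92 and 3.61, none of them well above background. Orm2 and Ptx3 thus gave no measurable course in these spleens, and nothing can be said of their level below the background.

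Between day 0 and day 2, 4 of the 7 detected members met the criteria for a lower signal (Lcn2, Hp, S100a8 and S100a9) and 0 met those for a higher one, where 2.55% and 1.91% of all detected probes did. For day 139 over day 0, 6 members were lower and 0 higher, where 2.21% and 2.52% of all detected probes were. For day 139 over day 2, 2 were lower (Saa1 and Saa3) and 0 higher, against 1.77% and 2.39%. Orm1 counts among the 7 only through its day 0 signal, and no ratio of Orm1 met the criteria. Since the members were picked with these ratios known, the counts describe them and nothing is read from the gap to the background. Day 2 over day 0 and day 139 over day 0 share the day 0 array, so a high or low reading of that array moves both.

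**Figure D2:**
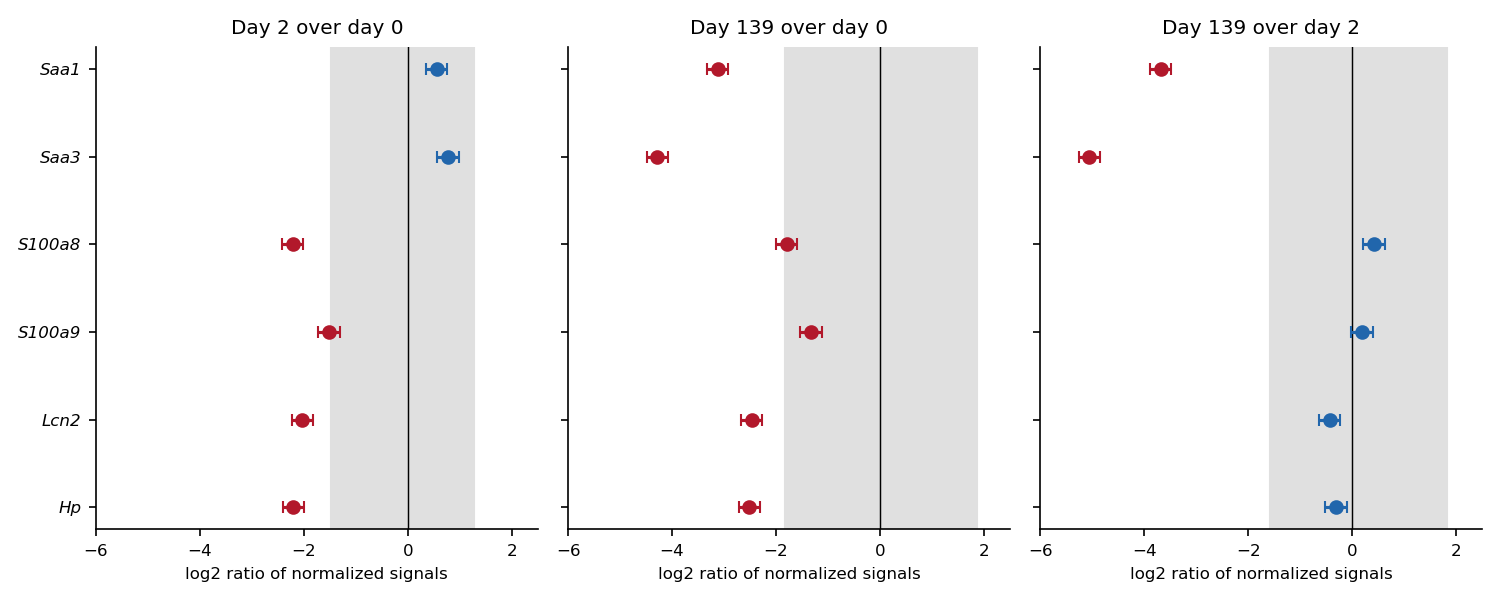
Log2 ratios of normalized signals for the 6 genes well above background on all arrays, in the 3 comparisons; bars give the scanner's error, red points met the study's ratio and Z-score criteria and blue points did not, and the grey band spans the central 95% of all detected probes. Saa1 and Saa3 lie at -3.12 and -4.28 for day 139 over day 0 and right of 0 for day 2 over day 0, where the other genes lie at -1.52 or lower.

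The genes whose course over the 3 days was closest to a member were sought among 14173 genes well above background on all arrays, by the root mean square difference of log2 signals after centring each gene on its median. For Saa3 the closest was Saa1, at a difference of 0.68, followed by the eosinophil chemokine Ccl24 at 0.82 and the matrix protease Mmp3 at 0.87. Ccl24 had signals of 1196, 853 and 92.7 and Mmp3 of 1055, 1215 and 143 on days 0, 2 and 139. The swing of Saa3 over the days was wider than that of these 3 genes. For Lcn2 the closest were Ppp1r3d (0.09), Celsr3 (0.10) and Hp (0.12), and for S100a8 they were the cytokine feedback inhibitor Socs3 (0.10), Lhx9 (0.10) and the glucocorticoid-induced gene Fkbp5 (0.20). With 3 points per gene many genes can share a course, so these distances are a description.

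The cytokines that drive the acute phase response were lower on days 2 and 139 than on day 0, or showed no call. Of 12 listed, 8 were detected, and for day 2 over day 0 3 were called lower and 0 higher, with a median log2 ratio of -1.07, against a median of 0.01 over all detected probes. The cytokine median was -0.41 under normexp background correction, with the same counts. Over all detected probes, 2.55% were called lower and 1.91% higher for this comparison. This list and those that follow were chosen with earlier results of these data known, so their counts are descriptions. Il6, the main inducer of hepatic acute phase genes, had signals of 841, 50.9 and 40.4, and Il1b had 3926, 721 and 1378. Il6 thus stood far above its later values on day 0 (log2 ratio -4.05 for day 2 over day 0). Hp and Lcn2 were also highest on day 0, and Saa3 was highest on day 2. The part of these cytokines in the course of the members was not tested. Lif and Il11, the highest ratios on the list, had log2 ratios of -0.10 and -0.29 and were not called. Il17a, Il22, Csf3 and Csf2 were not well above background on any array. For day 139 over day 0, 3 of the 8 were called lower and 0 higher, and for day 139 over day 2 none was called either way. Of all detected probes, 2.21% were lower and 2.52% higher for day 139 over day 0, and 1.77% and 2.39% for day 139 over day 2. Under spike-in scaling the cytokine counts were 2 lower for day 139 over day 0 and 2 higher for day 139 over day 2. Under that scaling 1.18% and 5.09% of all detected probes were so called.

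All 19 receptors and signaling genes of these pathways were detected. For day 2 over day 0, 4 were called lower and 0 higher (median -0.36), against 2.55% and 1.91% of all detected probes. Socs3, induced by STAT3, had signals of 7204, 1645 and 2315, and Il1rap, a subunit of the interleukin-1 receptor, 114, 41.7 and 34.1. The NF-kB subunit genes Nfkb2 and Nfkb1 had log2 ratios of 0.33 and 0.03 and were not called. For day 139 over day 0, 5 were called lower and 0 higher, 3 under spike-in scaling, with a median of -0.32 that was 0.08 under that scaling. Of all detected probes, 2.21% were called lower and 2.52% higher for day 139 over day 0, and 1.18% lower under spike-in scaling. Of 13 detected receptors and binding partners of the members' proteins, 1 was called lower for day 2 over day 0, the gelatinase Mmp9, which forms a complex with lipocalin 2, with signals of 221, 101 and 73.8 and a Z-score of -2.05, and 0 were called with the authors' deposited values. The genes called lower for day 139 over day 0 were 2, Mmp9 and Tnfaip6. Tnfaip6, a binding partner of Ptx3 named after its values were seen, had signals of 92.4, 90.2 and 11.3. It was not well above background on day 139, where it was at least 4.80-fold lower than on day 0. Tnfaip6 was also the 1 gene called lower for day 139 over day 2, at least 4.68-fold, where 1.77% of all detected probes were called lower. The formyl peptide receptor Fpr2, which binds serum amyloid A, had 867, 462 and 475 and was not called. The lipocalin receptor Slc22a17 (284, 467 and 427) and the complement gene C1qa (5969, 9165 and 6969) had the highest ratios and were not called.

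Of the other genes classed as acute phase reactants, some were called lower and none higher on day 2 than on day 0. Of 25 listed, 18 were detected, and 9 were called lower and 0 higher for day 2 over day 0, with a median log2 ratio of -1.06. The median was -0.64 under normexp background correction, with the same counts. Over all detected probes, 2.55% were called lower and 1.91% higher for this comparison. For day 139 over day 0, 8 were called lower and 1 higher (median -1.56, and -0.70 under normexp background correction). Of all detected probes, 2.21% were called lower and 2.52% higher for day 139 over day 0. For day 139 over day 2, 2 were called lower and 1 higher, against 1.77% and 2.39% of all detected probes. Under spike-in scaling these became 1 lower and 2 higher, against 0.85% and 5.09%. The decoy receptor Il1r2 had signals of 2699, 238 and 150, and the metallothionein Mt2, which binds zinc, had 74246, 17505 and 5821. Both stood highest on day 0 and lowest on day 139. The fibrinogen chain gene Fga, with the highest ratio, had 13.9, 14.7 and 3.78 and the protease inhibitor Serpina3g 13242, 10693 and 10857, neither called. Fga lay near the lowest signal well above background on day 0 (12.9) and day 2 (14.0). It was not well above background on day 139. The gene called higher on day 139 was the fibrinogen chain gene Fgb, named after its values were seen, which had signals of 11.8, 10.3 and 135 and was not well above background on days 0 and 2. Of 8 genes that fall in the hepatic response, 4 were detected, and Alb, Apoa1, Ahsg and Serpina6 were not. Of these, Ttr, named after its values were seen and also made by islet endocrine cells, was called higher on day 2, at least 39.4-fold over day 0, while Rbp4, Apoa2 and Trf had log2 ratios of 0.75, 0.29 and 0.27, above day 0, and were not called.

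**Figure D3:**
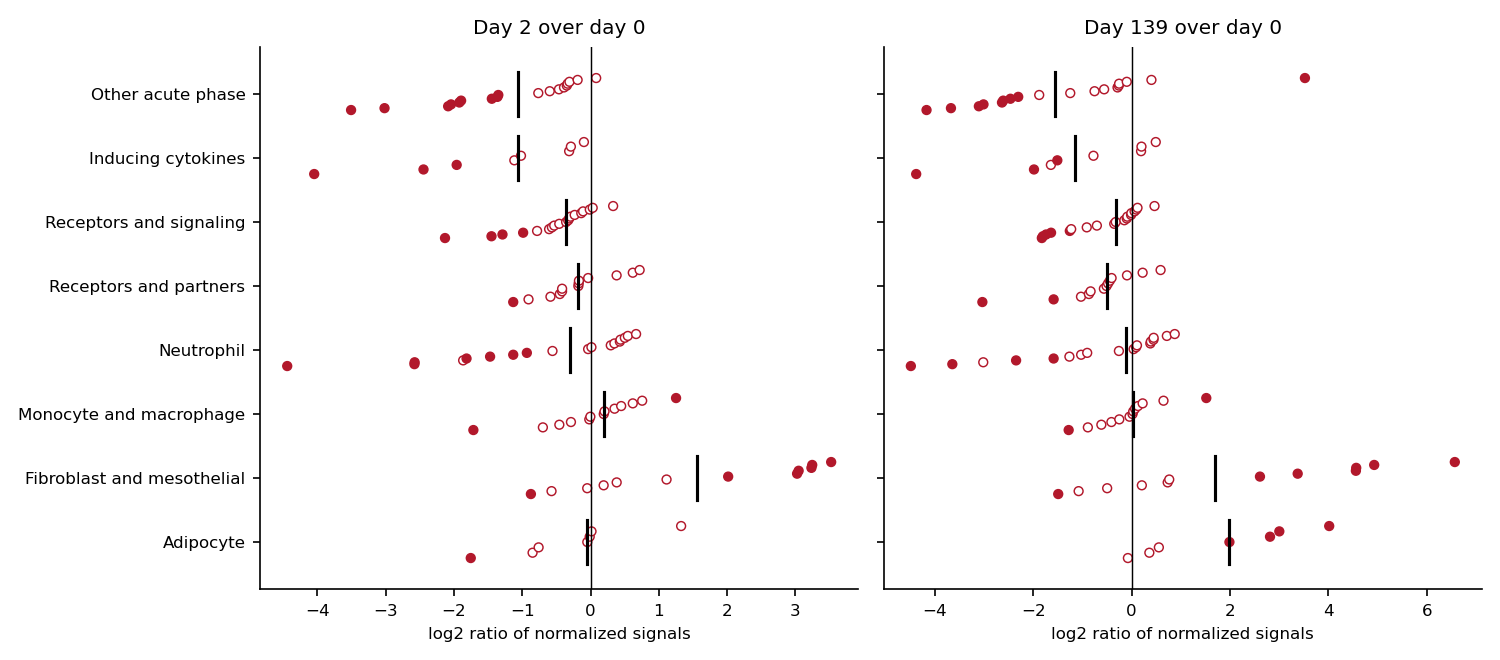
Log2 ratios of day 2 over day 0 and of day 139 over day 0 for the detected genes of 8 lists, 1 point per gene, filled where the study's criteria were met. The black bar is the list median. Genes too dim to be measured on 1 or both arrays of the pair stand at the ratio of their signals and enter the median. The other acute phase and cytokine lists have medians of -1.06 and -1.07 for day 2 over day 0, while those of the neutrophil and macrophage lists are -0.30 and 0.19.

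In bulk spleen, fewer cells of a type and less RNA per cell cannot be told apart, so markers of the cells that could carry these transcripts are set beside them. For hepatocytes, 5 of 12 markers were detected, and Alb, Apoa1, Apob, Ahsg, Cps1, Tdo2 and Hpd were not well above background on any day. The summed signal of all 12, detected or not, was 379 on day 0, 361 on day 2 and 884 on day 139. Serpina1a, with signals of 234, 196 and 652, made up most of that sum. The part of liver cells in the course of Saa1 and Hp was not tested. Among 18 neutrophil markers, all detected, 7 were called lower and 0 higher for day 2 over day 0, against 2.55% and 1.91% of all detected probes. With the authors' deposited values, 6 of the 18 markers were called lower. Their summed signal was 71389, 58152 and 52778, of which Csf3r alone, named after its values were seen, gave 39796, 38837 and 33261, so the sum does not describe the 18 genes evenly. The collagenase Mmp8 had signals of 3033, 140 and 135 and the chemokine receptor Cxcr2 1443, 242 and 283, both highest on day 0, as S100a8 and S100a9 were. The granule protease Prtn3 had 160, 254 and 171 and the ficolin Fcnb 43.4, 63.3 and 79.6, neither called. The neutrophil markers therefore did not move as 1 block, and for day 139 over day 0 4 were called lower and 0 higher (3 and 0 under spike-in scaling). Of all detected probes, 2.21% were called lower and 2.52% higher for that comparison (1.18% and 4.76% under spike-in scaling). The part of neutrophils in the course of S100a8, S100a9, Lcn2 and Hp was not tested.

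Of 13 detected macrophage and monocyte markers, 1 was called higher (Cx3cr1, 1024, 2440 and 2933) and 1 lower (Spic, a factor of red pulp macrophages, 13171, 4011 and 9906) for day 2 over day 0, and the summed signal was 138557, 136714 and 125305. Of all detected probes, 1.91% were called higher and 2.55% lower for day 2 over day 0. Emr1, with a log2 ratio of 0.76, and Mrc1, at -0.70, were not called. Of 12 fibroblast and mesothelial markers, 6 were called higher and 1 lower for day 2 over day 0, against 1.91% and 2.55% of all detected probes. The sums of the 12 markers were 10909, 29204 and 22346. The collagen genes Col3a1 (785, 9030 and 1334) and Col1a1 (1179, 11182 and 1361) were highest on day 2, the day on which Saa1 and Saa3 were highest, while the fibroblast receptors Pdgfra and Pdgfrb had log2 ratios of -0.87 and -0.57. Pdgfra was the marker called lower, with a Z-score of -2.01, and 0 were called lower under normexp background correction, 75th percentile scaling or with the authors' deposited values. The other markers called higher on day 2, all named after their values were seen, were highest on day 139, when Saa1 and Saa3 were lowest. They were the mesothelial genes Msln (96.4, 390 and 2283), Upk3b (4.84, 45.5 and 459), Krt19 (20.6, 170 and 486) and Lrrn4 (6.43, 52.3 and 196), of which Upk3b and Lrrn4 were not well above background on day 0. Of the 12 markers, 6 were called higher and 1 lower for day 139 over day 0, against 2.52% and 2.21% of all detected probes. The part of stromal cells in the course of the amyloid genes was not tested. Of 7 detected adipocyte markers, 1, Retn (110, 32.5 and 141), was called lower for day 2 over day 0, against 2.55% of all detected probes. For day 139 over day 0, 4 were called higher, when Saa3 was lowest, against 2.52% of all detected probes. The sums over all 9 listed, detected or not, were 1648, 994 and 3107. Of 9 detected endothelial markers, 0 were called for day 2 over day 0, where 1.91% of all detected probes were called higher and 2.55% lower. The sum over all 10 listed, detected or not, was 16847, 18558 and 15945. Markers of spleen cells were present: 9 of 9 B cell, 8 of 8 T cell and 8 of 8 erythroid markers on the array were detected on every day. On day 139, where the 6 measured members were lower than on day 0, 4 of 9 B cell markers were called higher for day 139 over day 0 and 5 for day 139 over day 2, with a median log2 ratio of 1.15 over day 0 and sums of 49989, 49504 and 94384. Of all detected probes, 2.52% and 2.39% were called higher in these comparisons. The T cell markers had a median of 0.90 over day 0, with 0 called (5 higher under spike-in scaling, where 4.76% of all detected probes were). The part of this shift in the lower day 139 signals was not tested. The islet endocrine list had 10 of 12 detected, with 8 called higher for day 2 over day 0 and 10 lower for day 139 over day 2, against 1.91% and 1.77% of all detected probes. Of 9 exocrine pancreas markers, 8 were detected, 3 of them called higher for day 139 over day 0, against 2.52% of all detected probes.

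The members' ratios were compared under other ways of making the signals. The log2 ratio of Saa3 for day 139 over day 0 ranged from -4.28 to -3.86 and that of Saa1 from -3.12 to -2.71. For day 2 over day 0, Saa3 ranged from 0.77 to 0.88, Hp from -2.21 to -2.14, Lcn2 from -2.03 to -1.97 and S100a8 from -2.22 to -2.11. The sign of these ratios was the same under each setting run.

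**Figure D4:**
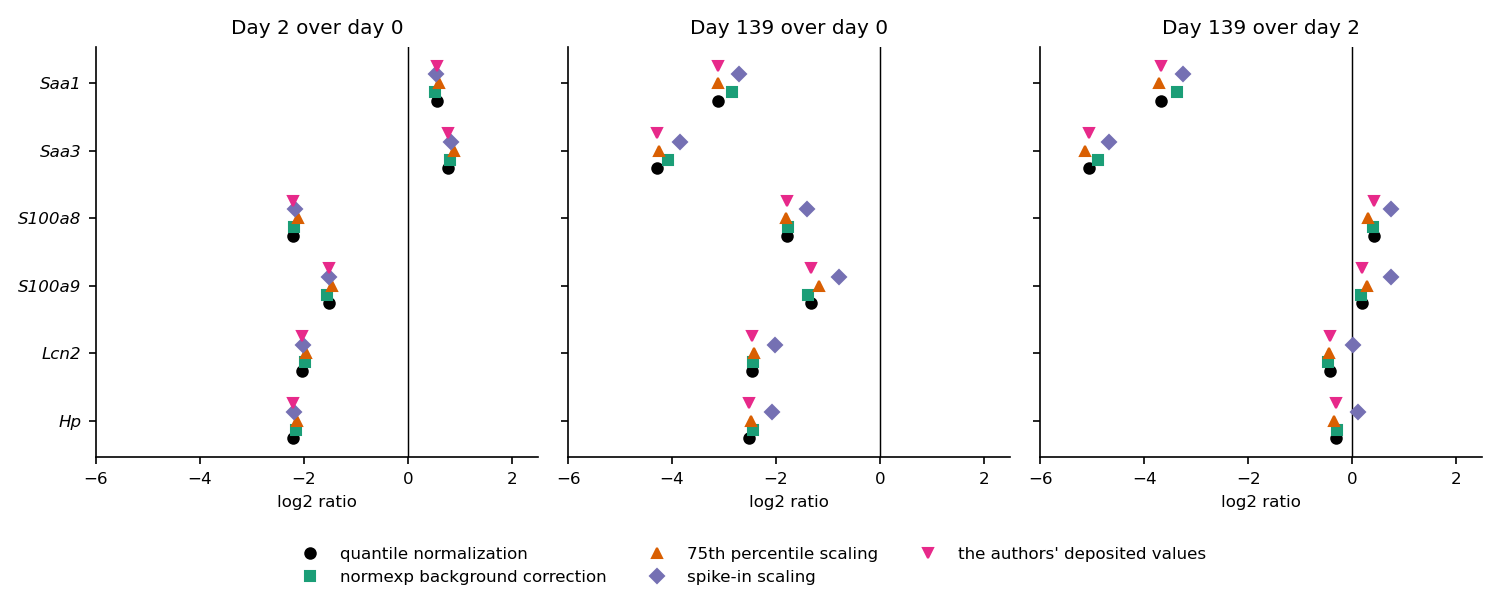
Log2 ratios of the 6 genes well above background on all arrays, in the 3 comparisons, under quantile normalization, normexp background correction, 75th percentile scaling, spike-in scaling and the authors' deposited values, 1 symbol each. Symbols of a gene lie close together for day 2 over day 0, and spike-in scaling lies to the right of the others in both comparisons with day 139, where Lcn2 and Hp cross 0 for day 139 over day 2.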

How the data were processed

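Total RNA of spleen from 3 samples was hybridized to 3 Agilent SurePrint G3 Mouse 8x60K arrays, 1 color (Cy3), all on 1 slide. The deposited scanner files hold the fluorescence intensity of each spot. The authors' processing notes name Feature Extraction 9.5.1.1, whereas the file headers name 10.7.1.1. The labels and the study's methods also name different RNA purification and labeling kits. The authors' deposited value table is a quantile-normalized intensity on a linear scale, not centred. Its column medians were 22.0 in each array over all probes for transcripts, detected or not. The direction of these values needs no choice, as they are levels.

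Processed intensity was read, outlier-flagged spots (119 to 152 per array) were dropped, spots of the same probe were averaged, and the arrays were quantile-normalized, floored at 1 and log2-transformed. A probe counted as detected if any of the 3 arrays flagged it as well above background, and 50.4% to 54.4% of probes had that flag on each array. Replicate spots of a probe had a median coefficient of variation of 4.29% to 5.97%. The number of arrays limits the precision. The study does not state its Z-score formula, so the local standard deviation was used. The brightest detected probe stood for a gene. Where a probe was not well above background on 1 array of a pair, the ratio is a bound against the lowest signal well above background.

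The members and gene lists were chosen with earlier results of these data known. Of each list, the genes with the 2 highest and the 2 lowest ratios of day 2 over day 0 among those measured on both arrays, or some of these, are named, besides genes stated to be named after their values were seen. Probe sequences were to be printed where they translate into the RefSeq protein; protein sequences were not used here, so the probes shown were chosen by reading frame and after they were seen. Of 34797 gene names on the array, 22290 were found among RefSeq symbols and synonyms. Alternatives covered background correction, scaling, floor, detection, flagged spots, probe choice and the spread behind the Z-score. Python 3.11.15, pandas 2.3.3, numpy 2.4.6, matplotlib 3.10.9, R 4.3.3 and limma 3.58.1 were used.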

Additional observations from a re-analysis of the deposited data

How the results depend on the processing

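Under 13 alternatives, no member's called ratio changed sign. The number of members called higher for day 2 over day 0 rose from 0 to 1 under 75th percentile scaling and to 1 with a scaled median absolute deviation behind the Z-score, Saa3 in both cases (Z-scores 2.03 and 2.81). The number of members highest on day 139 rose from 0 to 1 with the floor set at the lowest signal well above background, where Orm1 stood at the floor. The cause of these changes was not tested beyond that construction. S100a9 for day 139 over day 0 was no longer called under spike-in scaling or with 1 standard deviation over all detected probes (Z-score -1.59). Orm1, well above background on day 0 alone, was called lower for day 2 over day 0 with that standard deviation (Z-score -3.26). A ratio of 2 or 0.5 without a Z-score called it lower for day 2 over day 0 and for day 139 over day 0. The counts of members called lower and of members highest on day 0 (Orm1 included) and day 2 stayed within 1.5 times under every alternative run.

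Spike-in scaling, from 8 controls, moved the median log2 ratio over all detected probes to 0.36 for day 139 over day 0 and 0.40 for day 139 over day 2, and changed the calls over all detected probes from 808 higher and 709 lower to 1529 and 380, and from 767 and 569 to 1634 and 272; the floor gave 1290 and 599, and 1205 and 471. The scaled median absolute deviation gave 1349 higher and 1564 lower for day 2 over day 0 (613 and 819 as reported), 1699 and 1738 for day 139 over day 0, and 1484 and 1518 for day 139 over day 2; a ratio of 2 or 0.5 without a Z-score gave 1364 and 1550, 1944 and 2228, and 1887 and 1991. Without the detection filter, 985 and 1276 were called for day 2 over day 0, 1186 and 1058 for day 139 over day 0, and 1149 and 860 for day 139 over day 2. No paired analysis was possible because each day has 1 array and no replicate number is shared.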
